A study of Mus musculus with 2 samples.

Results

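Conventional CD4 T cells are the helper T cells of the tumour infiltrate that carry CD4 but not the regulatory factor Foxp3. They were studied in B16F10 tumours, a transplantable mouse melanoma grown under the skin, whose CD45-positive cells had been sorted for a single-cell library of the whole transcriptome. The members were chosen by measured values. A member had at least 1 molecule of Cd4 or Cd40lg, no molecule of Foxp3, Cd8a or Cd8b1, and at least 2 molecules over Cd3e, Cd3d, Cd3g and Trac. It also had fewer than 2 molecules over Cd163l1, Trdv4 and Il17a, fewer than 10 over C1qa, C1qb and C1qc, and fewer than 5 over Fscn1 and Ccl22. The rule found 339 members among 10491 filtered cells (3.23%), out of 14899 cells deposited.

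A CD4 helper T cell reads peptides on MHC class II and passes signals on to other cells. It does so through surface ligands of the TNF family, among them CD40 ligand, CD30 ligand (Tnfsf8) and RANKL (Tnfsf11), and through cytokines such as interferon gamma. CD28 and ICOS are the receptors that deliver the second signal to the helper cell itself. In tumours such cells occur next to regulatory T cells, which share CD4 and ICOS, and to CD8 T cells, which share the T cell receptor and the effector cytokines.

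The infiltrate came from 3 groups of female C57BL/6 mice, 3 mice for each tumour genotype. They carried B16F10 cells with a knockout of Tyr, the gene of the pigment enzyme tyrosinase, B16F10 cells with a knockout of Oca2, a gene of the pigment granule, or wildtype B16F10 cells. The labels give no age of the mice and no allele of the host, although the series title speaks of T cells that lack PD-1. The cells of each group got a sample tag, and all went through 1 capture, so that no second cell library exists with which barcodes could be shared. The sources used here do not say which of tags 8, 9 and 10 stood for which genotype. As the cells of a group shared a tag, its mice cannot be told apart. The tags are therefore 3 samples of unnamed genotype, no genotype was compared with another, and no test was made. Values for tags are given in the order 8, 9 and 10.

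Members numbered 101, 111 and 127, which was 3.03%, 3.18% and 3.46% of the filtered cells of their tags. The exact Clopper-Pearson 95% intervals ran from 2.47% to 3.67% in tag 8, from 2.63% to 3.82% in tag 9 and from 2.89% to 4.10% in tag 10, and these overlap. The members held 483189, 383912 and 432728 molecules in all, with medians of 2969, 2963 and 2966 per cell. Levels are given as CPM, that is, molecules of a gene summed over the cells of a class in a tag, for each 1000000 molecules of that class in that tag. CPM is not scaled to gene length, so it compares 1 gene between cells and not 2 genes with each other. Every interval covers counting error only, since cells of a tag are not replicates.

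The rule rested on few molecules. Of the 339 members, 274 had Cd4 alone (80.8%), 19 had Cd40lg alone (5.6%) and 46 had both (13.6%). A single molecule of either gene admitted 130 members, 89 had 2 molecules and 120 had 3 or more. Just outside the rule lay 587 T cells with no molecule of Cd4, Cd40lg, Foxp3, Cd8a or Cd8b1, 24 cells kept out by 1 molecule of Foxp3, 17 by a T receptor sum of 1 and 10 by 1 molecule of Cd8a or Cd8b1. Icos stood at 714, 1848 and 1884 CPM in members admitted by 1 molecule and at 2088, 2055 and 1901 CPM in members with 3 or more, against 451, 428 and 408 CPM in the 587 cells outside. Members at the edge of the rule thus had a higher Icos level than the cells just beyond it in each tag, with the narrowest gap in tag 8. Cd28 and Tnfsf11 were also higher in these members in each tag. In tag 8, however, Tnfsf8 stood at 20.1 CPM in them against 38.6 CPM outside. Trbc2, a constant chain of the T cell receptor, stood there at 553 against 818 CPM. In tags 9 and 10 both genes were higher in the members admitted by 1 molecule. With all cells, the edge in tag 8 was thus not set apart by every marker. Tag 8 held 2 members rich in melanoma molecules, described below, with 27.7% of the members' molecules of that tag. The edge levels were not computed without them, so their part in the tag 8 values was not tested. Trdc, the constant chain of the gamma-delta T cell receptor, stood at 3.35, 0 and 25.8 CPM in members admitted by 1 molecule and at 0, 11 and 14.5 CPM in those with 3 or more, against 178, 123 and 219 CPM outside.

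The label was checked against the 3 given markers that the rule did not use. Icos was found in 78.2% of members, Cd28 in 66.1% and Tnfsf8 in 15.6%, and in 63.2%, 34.7% and 8.01% after each cell was thinned to 1000 molecules. B cells, which should lack them, had these genes in 1.5%, 1.5% and 0% of cells. Their median depth was 2353 molecules against 2966 in members. Other T cells carried the given markers too. At least 2 molecules over all 5 were held by 89.1%, 93.7% and 95.3% of members. The shares were 98.3%, 92.3% and 98.4% of regulatory T cells. They were 66.9%, 75.4% and 78.1% of CD8 T cells, which by their rule had no Cd4 or Cd40lg. The check against B cells thus does not tell members from other T cells. Markers of other cell types were present too. The 5 B cell markers summed to 66.2, 75.5 and 62.4 CPM, and the 6 NK cell markers to 53.8, 109 and 99.4 CPM. The rule itself limited 3 of the 6 gamma-delta T cell markers, which summed to 26.9, 13 and 32.4 CPM in members and 17.7, 14.4 and 22.3 CPM in CD8 T cells, and the complement genes among the macrophage markers, which summed to 139, 159 and 69.3 CPM. Monocyte markers, among them Ly6c2 and Ccr2, which T cells also express, summed to 589.8, 1011 and 691 CPM in members, and 36.6%, 42.3% and 33.1% of members held 2 or more of their molecules. They were higher in CD8 T cells, at 1262, 1235 and 1696 CPM. Markers of type 2 innate lymphoid cells, among them Gata3 and Il1rl1 of T helper 2 cells, summed to 267, 466 and 404 CPM in members, with 18.8%, 19.8% and 26% of cells holding 2 or more, and to 492, 346 and 390.1 CPM in regulatory T cells. Their part in the values was not tested, and the counts without cells that held markers of other types are given with the other alternatives.

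The promoters of 3 genes are shown because 2 of them encode the TNF family ligands by which members differed from both other T cell classes, and the third encodes an interferon-induced protein that was higher in members than in regulatory T cells. Each stretch is the 250 bases before the annotated start, from RefSeq on GRCm38.p6, read 5′ to 3′ in the direction of the gene. The stretches are chr4:63861285-63861534 on the minus strand for Tnfsf8, chr14:78308044-78308293 on the minus strand for Tnfsf11 and chr19:34583279-34583528 on the plus strand for Ifit3. Capitals in the first 2 mark GGAAA, the core bound by NFAT, which T cell receptor signals activate. Capitals in the third mark GAAANNGAAA, the core of the interferon-stimulated response element, on the reverse strand. The letters were searched on both strands.
Tnfsf8: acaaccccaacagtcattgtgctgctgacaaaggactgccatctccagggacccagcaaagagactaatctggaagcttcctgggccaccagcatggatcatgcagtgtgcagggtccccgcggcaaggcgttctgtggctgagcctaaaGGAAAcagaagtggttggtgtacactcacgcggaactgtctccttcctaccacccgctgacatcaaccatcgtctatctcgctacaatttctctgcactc
Tnfsf11: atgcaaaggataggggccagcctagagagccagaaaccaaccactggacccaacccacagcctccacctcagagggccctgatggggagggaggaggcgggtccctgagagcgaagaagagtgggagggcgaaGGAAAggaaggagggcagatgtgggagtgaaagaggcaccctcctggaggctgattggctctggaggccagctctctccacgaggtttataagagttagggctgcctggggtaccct
Ifit3: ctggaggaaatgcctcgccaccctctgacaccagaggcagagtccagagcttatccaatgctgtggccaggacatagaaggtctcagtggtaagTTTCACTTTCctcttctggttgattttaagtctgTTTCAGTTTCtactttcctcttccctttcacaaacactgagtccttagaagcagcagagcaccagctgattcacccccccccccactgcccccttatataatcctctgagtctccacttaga
GGAAA lay once in each ligand promoter, 100 to 96 bases before the start of Tnfsf8 and 117 to 113 bases before that of Tnfsf11. These letters occur in 55.6% of 32851 mouse promoters of the same length. Ifit3 held GAAANNGAAA at 2 places, 156 to 147 and 122 to 113 bases before the start. At least 1 such match occurs in 2.98% of the promoters and 2 or more in 0.18%. A match describes the sequence and is no evidence of binding.

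Members that stood apart touch many values. In tag 8, 2 members held 86188 and 47681 molecules, with 1662 and 1208 molecules of the melanoma genes Pmel, Dct, Tyrp1, Mlana and Tyr. Together they supplied 27.7% of the members' molecules in that tag, whereas no other member had more than 3 melanoma molecules. Among regulatory T cells 1 cell of tag 9 had 53 such molecules, and among CD8 T cells 2 cells of tag 9 had 1502 and 116. One member of tag 9 held 421 molecules of the haemoglobin genes. Cells whose tags marked them as multiplets had been left out, and no further doublet caller was run. Their part in the values was not tested, but the counts of calls are also given without the cells that had 10 or more melanoma molecules, with the list genes whose call this changed. Without them, the tag 8 level was 1726 CPM for Icos, 507 CPM for Cd28, 143 CPM for Tnfsf8, 137 CPM for Tnfsf11 and 515 CPM for Tcf7, each above the value with all members given below.

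**Figure D1:**
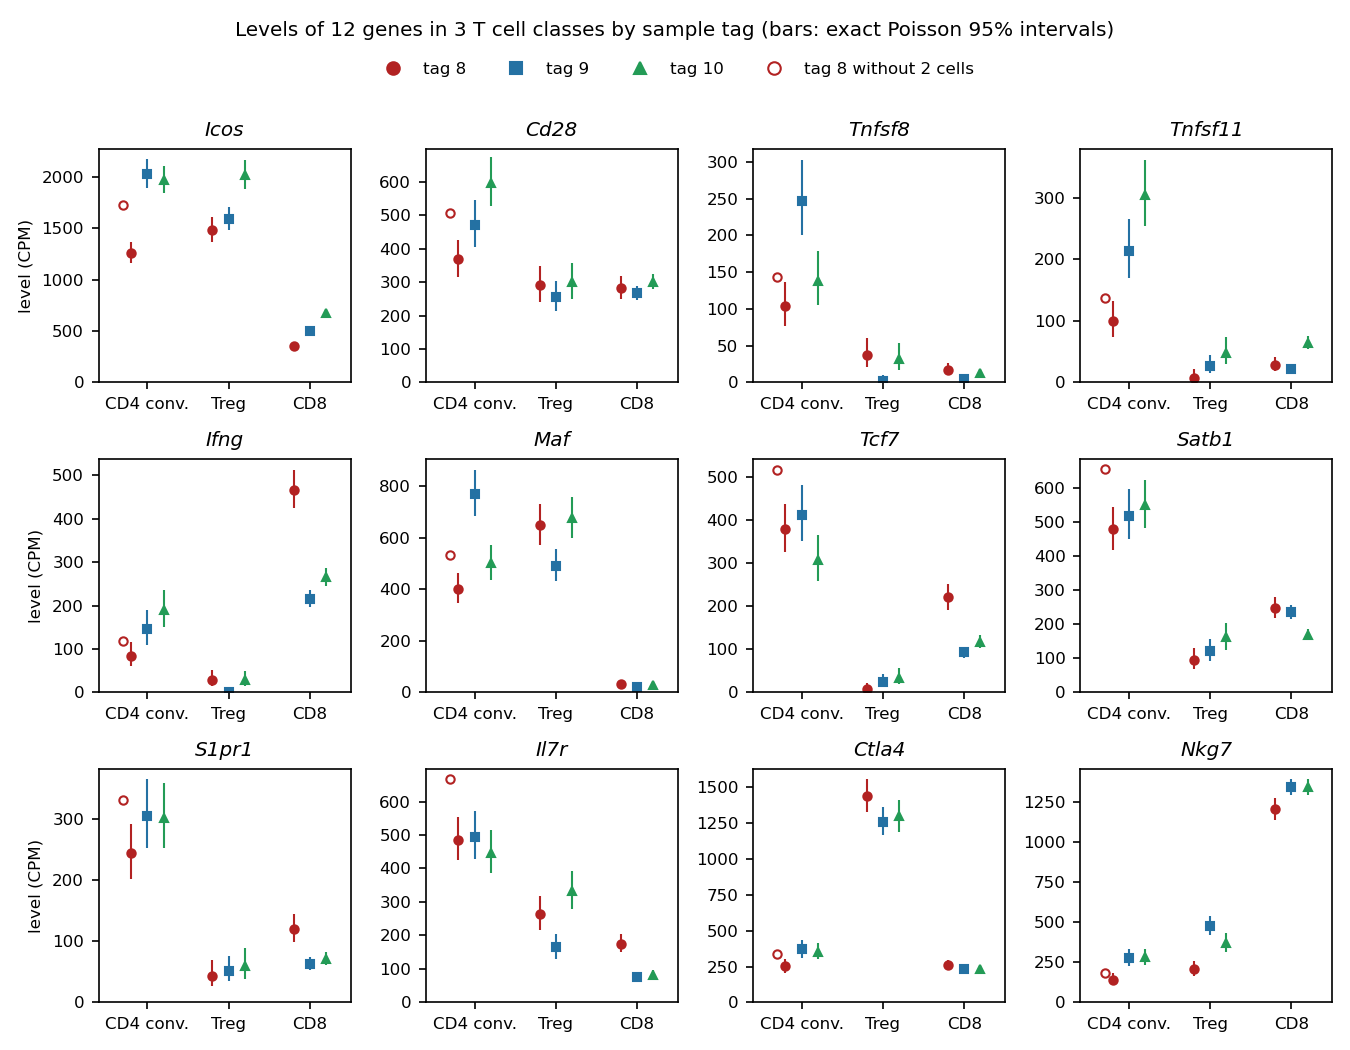
Levels in CPM of 12 genes in conventional CD4 T cells, regulatory T cells and CD8 T cells, 1 point per sample tag with exact Poisson 95% intervals; the open circle is tag 8 of the conventional CD4 T cells without the 2 cells rich in melanoma molecules. Tnfsf8 and Tnfsf11 stood highest in the conventional CD4 T cells of each tag, Ctla4 in regulatory T cells and Nkg7 in CD8 T cells.

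Members were set beside regulatory T cells (59, 65 and 62 cells with Foxp3) and CD8 T cells (154, 252 and 302 cells with Cd8b1), within each tag. A call of higher or lower needed a CPM ratio of 2 or more, with 1 direction shared by tags 8, 9 and 10. Only genes with 30 molecules or more across the 2 classes were compared, and 0 molecules in a tag counted as the floor of 3. Of 7805 genes compared with regulatory T cells, 144 were called higher in members (1.84%) and 99 lower (1.27%). The genes of the 20 gene lists showed 26 higher and 18 lower of 189 compared, a higher share than over all genes, but the lists were put together with earlier results known. Without the cells with 10 or more melanoma molecules, 2.33% of all genes were higher and 2.56% lower, and the lists showed 27 of each. Without tag 8, which holds the 2 deep members, the lists showed 34 higher and 30 lower. A call then needs only tags 9 and 10. Of 55 named calls, 9 were kept under every alternative. A call is counted as lost here where the ratio fell short of the limit or the gene could no longer be compared, and thinning to 1000 molecules did the one for 13 calls and the other for 29.

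Of 9480 genes compared with CD8 T cells, 181 were called higher in members (1.91%) and 204 lower (2.15%). The lists showed 17 higher and 19 lower of 194 compared. Without the melanoma-rich cells, 2.8% of all genes were higher and 3.56% lower, and the lists showed 36 higher and 29 lower. Without tag 8 the lists showed 50 higher and 31 lower, so leaving out that tag or the melanoma-rich cells moved these counts by more than 1.5 times. The higher side then gained Tcf7, Satb1, Bach2, Cd5, Slamf1, Btla, Rora, Cd69, Il6st, Nr4a1, Isg15, Ifit1, Rtp4, Fos, Zfp36, Nfkbia, Gimap6, Btg2, Klf3 and Lrrc32 and lost Irgm1, and the lower side gained proliferation genes and Tpi1. Of 52 named calls, 11 were kept under every alternative, and thinning left 12 short of the limit and 23 not compared. A floor of 3 counts can also lift a class that had no molecule above one that had. With at least 1 molecule required in the higher class of every tag, 1.81% of genes were higher than in regulatory T cells and 1.8% higher than in CD8 T cells, and no list gene lost its call.

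Of the ligands and cytokines of helper cells, Tnfsf8 and Tnfsf11 set members apart from both other classes. Tnfsf8 stood at 103, 247 and 139 CPM in members (exact Poisson 95% intervals 76.8 to 136, 200.2 to 302 and 106 to 178), against 36.7, 1.93 and 31.3 CPM in regulatory T cells and 16.6, 4.48 and 12.5 CPM in CD8 T cells. The lowest member tag exceeded the highest tag of either other class. Tnfsf11, whose product also drives osteoclast formation, stood at 99.3, 214 and 305 CPM in members (intervals 73.2 to 132, 169.9 to 265 and 255 to 362), against 7.34, 27 and 48.2 CPM in regulatory T cells and 28.1, 22 and 64.6 CPM in CD8 T cells. Here too the groups did not overlap. Both ligands were called higher than in either class. The Tnfsf8 call against regulatory T cells was lost under 4 of the alternatives, among them leaving out members with Il2ra or Ikzf2, and the Tnfsf11 call under 2.

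Ifng was higher in members than in regulatory T cells, at 84.9, 146 and 189 CPM against 29.4, 1.93 and 28.9 CPM, where regulatory T cells had 12, 1 and 12 molecules. CD8 T cells held 467, 215 and 265 CPM, which was above members in each tag, though less than 2-fold apart in tags 9 and 10. Lymphotoxin beta (Ltb) stood at 163, 169 and 222 CPM in members, 272, 218 and 183 CPM in regulatory T cells and 119, 109 and 129 CPM in CD8 T cells, and was called in neither comparison. Lta stood at 29, 28.7 and 18.5 CPM, from 14, 11 and 8 molecules. Tnf, the founding ligand of the family, stood at 97.3, 80.7 and 102 CPM in members, 117, 65.7 and 69.8 CPM in regulatory T cells and 72.8, 45.3 and 67.2 CPM in CD8 T cells, and was not called. Il2, the T cell growth factor, had 0, 19 and 5 molecules and so none in tag 8.

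Several textbook helper cytokines were at or near 0. Il21 and Il3 had no molecule in any member. The floor of 3 cells in 339 allows a share of members with a molecule of up to 0.885%. Il4 had 2, 1 and 0 molecules, Il5 had 1, 2 and 0 and Csf2 had 0, 2 and 3. Il13 had 0, 13 and 2, so that nearly all of it lay in tag 9. Il10, of which regulatory T cells and macrophages are known sources, stood at 14.5, 28.7 and 48.5 CPM in members, against 73.4, 42.5 and 81.9 CPM in regulatory T cells. Of the 15 genes of this list, 10 could be compared with regulatory T cells, of which 3 were higher and none lower, with a median log2 ratio of 0.32 beside -0.02 over all genes compared. Of 11 compared with CD8 T cells, 2 were higher and none lower, with a median of 0.89 beside 0.02.

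Of the costimulatory receptors, Icos was the 1 called higher in members than in another class, joined by Slamf1 against CD8 T cells once the melanoma-rich cells were left out. Icos stood at 1258, 2032 and 1974 CPM in members, against 1483, 1591 and 2020.4 CPM in regulatory T cells and 353, 505 and 678 CPM in CD8 T cells. Members and regulatory T cells overlapped, whereas every member tag lay above every CD8 tag, and Icos was called higher than in CD8 T cells in every alternative. Cd28 stood at 368, 471 and 599 CPM in members, against 291, 257 and 301 CPM in regulatory T cells and 284, 268 and 301 CPM in CD8 T cells. The member tags lay above the tags of both classes, but the gap was under 2-fold in at least 1 tag, so Cd28 was not called.

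Receptors of the TNF receptor family were lower in members than in regulatory T cells. Tnfrsf9 (4-1BB), induced by antigen, stood at 161, 227 and 263 CPM against 1018, 1364 and 1483 CPM, log2 ratios of -2.66, -2.59 and -2.49. Tnfrsf4 (OX40) stood at 145, 289 and 263 CPM against 509, 661 and 679 CPM, and Tnfrsf18 (GITR) at 178, 224 and 210.3 CPM against 583, 506 and 532 CPM. Cd27 stood at 24.8, 49.5 and 67 CPM, against 166, 162 and 195 CPM in regulatory T cells and 153, 144 and 155 CPM in CD8 T cells, and was lower than in both. In all, 4 of 10 costimulatory receptors were lower and none was higher than in regulatory T cells, and against CD8 T cells 1, Icos, was higher and 2, Cd27 and Tnfrsf9, were lower. Tnfrsf9 stood at 559.6, 779 and 656 CPM in CD8 T cells, and its call against them was lost under 4 alternatives, where the median log2 ratio came to between -1.54 and -0.15.

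Inhibitory receptors were lower in members than in 1 or both classes in several cases. Ctla4, the receptor that competes with CD28 for its ligands, stood at 250.4, 369.9 and 354 CPM in members against 1437, 1259 and 1296 CPM in regulatory T cells, log2 ratios of -2.52, -1.77 and -1.87, with no overlap between the groups. CD8 T cells had 259, 231 and 231 CPM, and Ctla4 was not called against them. Pdcd1, the gene of PD-1, stood at 37.3, 112 and 80.9 CPM from 18, 43 and 35 molecules in members, against 243, 316 and 230.2 CPM in CD8 T cells. Lag3 stood at 6.21, 31.3 and 27.7 CPM in members against 77, 131 and 109.5 CPM in CD8 T cells, and Havcr2 (TIM-3) at 16.6, 52.1 and 11.6 against 140.4, 141 and 96.2 CPM. In all, 5 of 11 genes of this list were lower than in CD8 T cells, namely Pdcd1, Lag3, Havcr2, Cd160 and Cd200, and none was higher. Without the melanoma-rich cells these 5 stayed lower and Btla was higher, with log2 ratios of 1.25, 2.04 and 1.57. Against regulatory T cells Ctla4 and Cd200 were lower and Cd96 was higher, although the Cd200 call was lost under 6 alternatives. Cd96 is a receptor of nectin family ligands, and stood at 55.9, 83.4 and 104 CPM in members against 4.9, 11.6 and 28.9 CPM.

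**Figure D2:**
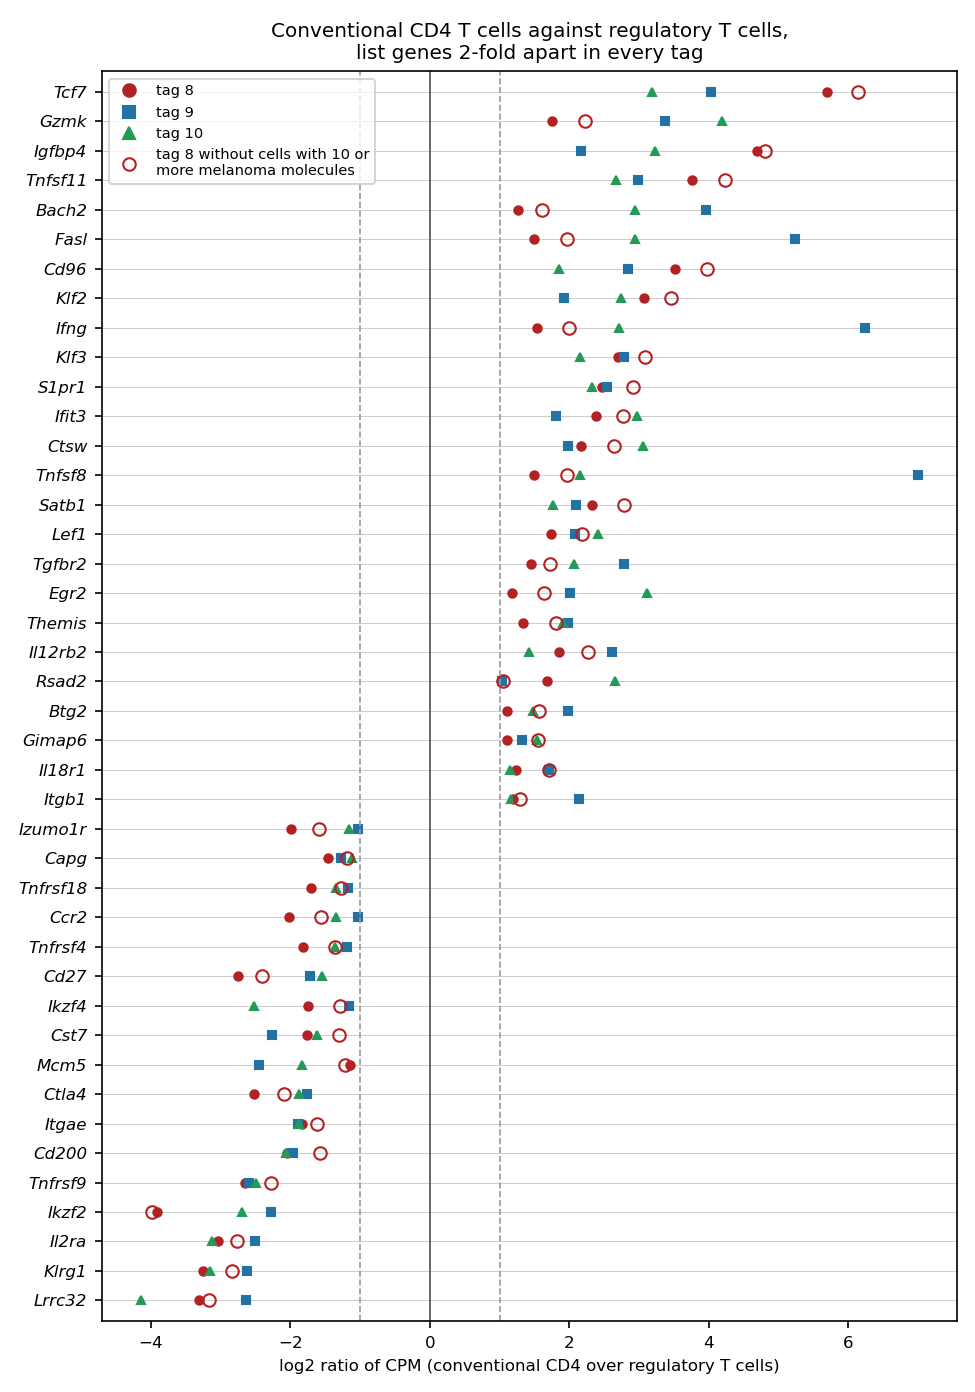
Log2 ratios of CPM, conventional CD4 T cells over regulatory T cells, for 42 of the 44 list genes called in each tag; 1 point per tag, dashed lines at a 2-fold difference, open circles for tag 8 without cells rich in melanoma molecules, a tag at 0 set to the floor of 3 counts. Tcf7 and Tnfsf11 stand far to the right in each tag, and Il2ra, Ikzf2, Klrg1 and Lrrc32 far to the left.

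Of the genes of resting and recirculating T cells, 7 of 11 compared were higher in members than in regulatory T cells, the largest such count among the 20 lists, with none lower and a median log2 ratio of 2.09. Tcf7, the factor TCF1 of naive and memory-like T cells, stood at 379, 412 and 307 CPM against 7.34, 25.1 and 33.7 CPM, where regulatory T cells had 3, 13 and 14 molecules. The groups did not overlap, and the call was lost under no alternative. S1pr1, the receptor by which T cells leave tissue for the lymph, stood at 244, 305 and 303 CPM against 44.1, 52.1 and 60.2 CPM, with log2 ratios of 2.47, 2.55 and 2.33. Satb1, a chromatin organiser of T cells, stood at 478, 518 and 550.0 against 95.5, 122 and 161 CPM. Klf2, which drives S1pr1, stood at 205, 117 and 194 against 24.5, 30.9 and 28.9 CPM, but its call was lost after thinning and with the mean over cells, where the median log2 ratio was between 0.40 and 2.72. None of these genes had a member tag below a tag of regulatory T cells. Lef1, Bach2 and Igfbp4 were the other members of the list called higher, and Foxp1 joined them without the melanoma-rich cells. The calls of S1pr1, Satb1 and Bach2 were lost under 1 alternative each and that of Igfbp4 under 3. When each cell was first thinned to 1000 molecules, the median log2 ratio of Lef1 over the tags was -0.012 and its call was lost. Ccr7, the receptor that leads into lymph nodes, stood at 122, 138 and 330.5 CPM in members and 228, 255 and 269.7 CPM in regulatory T cells and was not called.

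Other genes of quiescence were called as well. Klf3, a relative of Klf2, stood at 190.4, 253 and 203 CPM in members against 29.4, 36.7 and 45.8 CPM in regulatory T cells. Btg2, an antiproliferative gene, stood at 215, 328 and 381 against 100.4, 83.1 and 137 CPM. Gimap6, a GTPase of lymphocytes, stood at 499, 432 and 488 against 233, 174 and 169 CPM. The Btg2 call was lost under 2 alternatives and the Gimap6 call under 3. The list of GIMAP and quiescence genes had 3 of 12 higher and none lower, and 4 with Btg1 once the melanoma-rich cells were left out. Tgfbr2, a receptor chain for TGF-beta, stood at 213, 359 and 282 CPM against 78.3, 52.1 and 67.4 CPM. Itgb1, the beta 1 integrin, stood at 528, 706 and 534 against 230.1, 160.3 and 238 CPM, while 3 of 12 migration genes were lower in members, among them the chemokine receptor gene Ccr2, lost under 4 alternatives, and the integrin gene Itgae. Of the T receptor signalling genes 2 of 12 were higher, among them the thymocyte gene Themis, which was lost under 3 alternatives.

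The genes known from regulatory T cells were lower in members, 10 of 13, with a median log2 ratio of -1.88. The classes had been separated by Foxp3, so these values describe that choice and support nothing further. Il2ra stood at 82.8, 146 and 111 CPM in members against 683, 831 and 966 CPM, and Ikzf2 (Helios) at 53.8, 159 and 146 against 813, 769 and 944 CPM. Lrrc32, the surface anchor of latent TGF-beta, stood at 10.3, 13 and 11.6 against 103, 81.1 and 205 CPM, and Klrg1, a receptor of differentiated lymphocytes, at 49.7, 23.4 and 16.2 against 472, 145 and 144 CPM. Ccr8 and Nrp1 were not called, Nrp1 at 37.3, 67.7 and 71.6 CPM in members and 36.7, 25.1 and 28.9 CPM in regulatory T cells. Outside the lists, the genes of largest difference included Nsg2, Lpar6 and Atp1b1 on the higher side and Lclat1, Sv2c and Adap1 on the lower side, each with fewer than 200 molecules over both classes. Nsg2 stood at 39.3, 36.5 and 34.7 CPM against 2.45, 0 and 2.41 CPM, and Sv2c at 16.6, 28.7 and 13.9 against 95.5, 147 and 89.1 CPM.

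**Figure D3:**
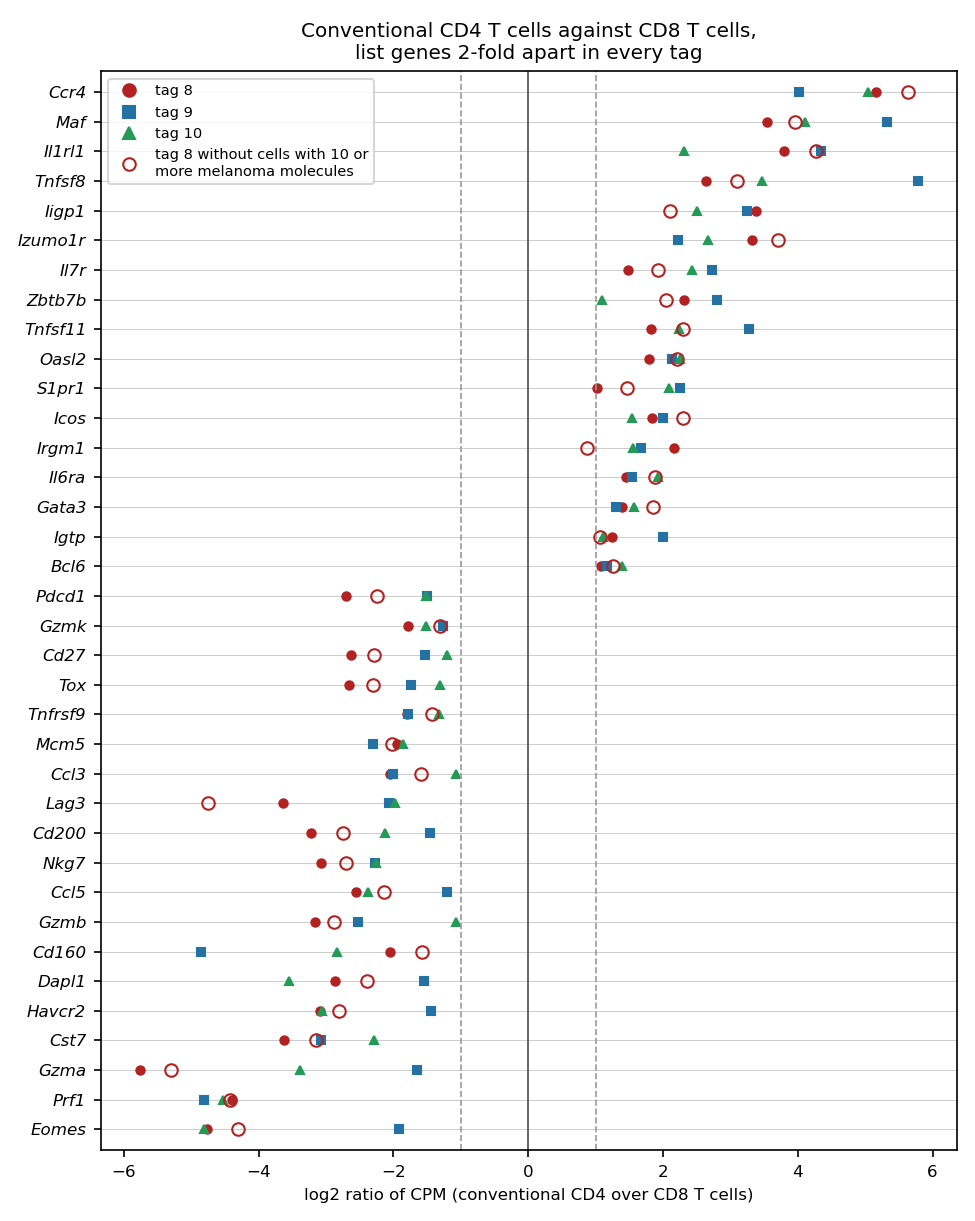
Log2 ratios of CPM, conventional CD4 T cells over CD8 T cells, for the 36 list genes called in each tag; 1 point per tag, dashed lines at a 2-fold difference, open circles for tag 8 without cells rich in melanoma molecules. Maf, Ccr4, Il1rl1 and Tnfsf8 lie to the right and Prf1, Eomes and Cst7 to the left, and the open circle of Irgm1 lies inside the 2-fold line.

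Several transcription factors known from helper cells were higher in members than in CD8 T cells. Maf, a factor of cytokine genes, stood at 401, 771 and 501 CPM in members against 34.3, 19.3 and 28.9 CPM in CD8 T cells, log2 ratios of 3.55, 5.32 and 4.11, while regulatory T cells had 649, 493 and 677 CPM. It was found in 53.7% of members, or 30.6% after thinning, against 21% and 10.9% of B cells. Gata3, the factor of T helper 2 cells, stood at 172, 245 and 300.4 against 65.5, 98.7 and 101 CPM. Bcl6, the factor of follicular helper cells, stood at 33.1, 44.3 and 78.6 against 15.6, 19.7 and 29.8 CPM, a call lost under 5 alternatives, with a median log2 ratio as low as 0.64. Zbtb7b (ThPOK), which commits thymocytes to the CD4 lineage, stood at 20.7, 31.3 and 16.2 against 4.16, 4.48 and 7.57 CPM, from 10, 12 and 7 molecules in members, and its call was lost under 7 alternatives. Il7r, the receptor chain for interleukin 7 that memory and resting T cells depend on, stood at 486, 495 and 446 against 175, 74.9 and 82.8 CPM and kept its call under every alternative. S1pr1 was also higher than in CD8 T cells, at 244, 305 and 303 against 121, 63.7 and 71.3 CPM, with a log2 ratio close to the limit of the call in tag 8 (1.02, 2.26 and 2.09). It was lost under 4 alternatives. Dapl1 was lower, at 8.28, 0 and 2.31 against 60.3, 22.9 and 27.2 CPM, and Il6ra, a receptor chain for interleukin 6, was higher, at 76.6, 54.7 and 43.9 against 28.1, 18.8 and 11.6 CPM, a call lost under 4 alternatives. Without the melanoma-rich cells, Tcf7, Satb1 and Bach2 of the resting list were higher than in CD8 T cells as well, Tcf7 with log2 ratios of 1.22, 2.11 and 1.39.

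Outside the lists, Ramp3 stood at 335, 552 and 395 CPM in members, 135, 108 and 142 CPM in regulatory T cells and 43.7, 73.5 and 56.1 CPM in CD8 T cells. It encodes a partner of the receptors for adrenomedullin, and was found in 47.5% of members and 2.62% of B cells. Tmem64 stood at 308, 359 and 317 CPM in members, 166, 147 and 176 CPM in regulatory T cells and 40.6, 36.8 and 51.2 CPM in CD8 T cells. Trib2, a pseudokinase, stood at 143, 130.2 and 166 CPM in members, 71, 77.3 and 96.3 CPM in regulatory T cells and 20.8, 18.8 and 21.8 CPM in CD8 T cells. All 3 stood in the order members, regulatory T cells, CD8 T cells in each tag. Espn was named by the same rule, but 39 of its 49 molecules in members lay in tag 8, and its level there was 2.86 CPM without the 2 melanoma-rich cells.

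Genes of more than 1 helper subset were found in members. T helper 1 genes summed to 977, 2264 and 1606 CPM in members, against 769, 796 and 1110.1 CPM in regulatory T cells and 3536, 3140.1 and 3524 CPM in CD8 T cells. Tbx21 (T-bet) stood at 26.9, 96.4 and 78.6 CPM in members, Cxcr3, the chemokine receptor it induces, at 64.2, 177 and 166 CPM and Stat4 at 95.2, 229 and 196 CPM. Of the 8 genes, 3 were higher than in regulatory T cells, namely Ifng and the receptor chain genes Il12rb2 and Il18r1, and none was lower. The Il18r1 call was lost under 6 alternatives. Il12rb2 stood at 70.4, 154 and 90.1 against 19.6, 25.1 and 33.7 CPM. Against CD8 T cells Ccl5, a chemokine gene that cytotoxic cells also use, was lower and none of the 8 was higher.

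T helper 2 genes summed to 310.4, 469 and 451 CPM in members, 568, 398 and 486 CPM in regulatory T cells and 93.6, 119 and 127 CPM in CD8 T cells. Gata3, Ccr4 and Il1rl1 (the interleukin 33 receptor ST2) were higher than in CD8 T cells. The Gata3 call was lost under 2 alternatives and the Ccr4 call under 3. The Il1rl1 call was lost under 3, among them leaving out members with Il2ra or Ikzf2. None of the 4 genes compared was called against regulatory T cells. Il1rl1 stood at 72.4, 128 and 55.5 CPM in members, 201, 118 and 142 in regulatory T cells and 5.2, 6.28 and 11.1 in CD8 T cells. It was found in 24 members. Of these 24, 17 also held Gata3 (70.8%), against 108 of 315 other members (34.3%), and 53.8% against 17.6% after thinning. Tbx21 and Gata3 showed no such pairing, since Gata3 was found in 18 of 54 members with Tbx21 (33.3%) and in 107 of 285 without it (37.5%). These shares describe cells and carry no test.

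Of the T helper 17 list, Rora, a factor that other T cells also use, stood at 517, 1031 and 989 CPM in members, 578, 666 and 631 CPM in regulatory T cells and 317, 224 and 318 CPM in CD8 T cells. Il17f had 2, 0 and 1 molecules, Il22 2, 1 and 2 and Il23r 1, 2 and 3, and the rule itself allowed at most 1 molecule of Il17a. Of the follicular list, Il21, Ascl2 and Sostdc1 had no molecule and Cxcr5, the receptor that leads into B cell follicles, had 1, 0 and 2. Izumo1r (folate receptor 4), known from follicular helper, anergic and regulatory T cells, stood at 41.4, 54.7 and 62.4 CPM in members, below regulatory T cells at 164, 112 and 139.7 CPM and above CD8 T cells at 4.16, 11.7 and 9.8 CPM.

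Of 12 cytotoxic genes compared with CD8 T cells, 9 were lower in members and none higher, with a median log2 ratio of -2.32. Nkg7, a granule membrane gene, stood at 143, 279 and 282 CPM in members against 1206, 1345 and 1344 CPM in CD8 T cells, and Prf1 (perforin) at 14.5, 10.4 and 0 against 306, 293 and 160.3 CPM. Gzmb, the granzyme that perforin lets into target cells, stood at 126, 234 and 511 CPM in members, 458, 717 and 725 CPM in regulatory T cells and 1133, 1352 and 1073 CPM in CD8 T cells. Against regulatory T cells Gzmk, Fasl and Ctsw were higher in members and Cst7 lower. Gzmk had 12, 23 and 19 molecules in members against 0, 0 and 1 in regulatory T cells, and Fasl 10, 28 and 16 against 0, 1 and 2, calls lost under 4 and 5 alternatives. Ctsw, a cathepsin of cytotoxic lymphocytes, stood at 99.3, 122 and 180.3 CPM in members against 22, 30.9 and 21.7 CPM. Eomes, a factor of cytotoxic cells, stood at 6.21, 36.5 and 4.62 CPM in members against 169.6, 138 and 129.6 CPM in CD8 T cells.

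Some interferon-induced genes were higher in members than in CD8 T cells. Oasl2, an oligoadenylate synthetase family gene, stood at 57.9, 65.1 and 73.9 CPM in members against 16.6, 14.8 and 15.6 CPM in CD8 T cells, and was the 1 gene called of the 12 on the type I interferon list. Its call was lost under 3 alternatives. Leaving out the melanoma-rich cells added Isg15, Ifit1 and Rtp4. Of the GTPases induced by interferon gamma, Iigp1 stood at 97.3, 115 and 55.5 against 9.36, 12.1 and 9.8 CPM, Igtp at 207, 268 and 196 against 87.4, 67.3 and 90.8 CPM and Irgm1 at 182, 138 and 146 against 40.6, 43.1 and 49.4 CPM. The Igtp call was lost under 4 alternatives and the Iigp1 call under 2. In tag 8 Irgm1 stood at 74.4 CPM and Iigp1 at 40.1 CPM without the 2 melanoma-rich members, and the Irgm1 call was then lost. Against regulatory T cells, Ifit3, whose promoter with 2 matches is shown above, stood at 76.6, 67.7 and 113 against 14.7, 19.3 and 14.4 CPM, and Rsad2 (viperin) at 70.4, 167 and 136 against 22, 81.1 and 21.7 CPM, a call lost under 5 alternatives, among them leaving out the melanoma-rich cells. None of the 11 interferon gamma genes was called against regulatory T cells.

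Among the antigen response genes, Egr2 was higher than in regulatory T cells and Tox lower than in CD8 T cells, and no other gene of the 12 was called with all cells. Egr2 rested on 8, 6 and 18 molecules in members and 3, 2 and 2 in regulatory T cells, and its call was lost under 7 alternatives. Tox, a factor of exhausted CD8 T cells, stood at 24.8, 67.7 and 73.9 CPM in members against 156, 227 and 184 CPM. Nr4a1, an early response gene of the T cell receptor, stood at 503, 581 and 855 CPM in members, 524, 371 and 448 CPM in regulatory T cells and 279, 222 and 392 CPM in CD8 T cells. It was called higher than in CD8 T cells without the melanoma-rich cells, at 669.9, 581 and 855 CPM in members against 279, 205 and 392 CPM. The genes known to respond to tissue dissociation summed to 7465, 7218 and 9100.4 CPM in members, 8215, 6356 and 7109 CPM in regulatory T cells and 5676, 4728 and 5914 CPM in CD8 T cells. None of these 12 genes was called in either comparison with all cells. Without the melanoma-rich cells Fos, Zfp36 and Nfkbia were higher in members than in CD8 T cells, Fos with log2 ratios of 1.27, 1.42 and 1.55, so that dissociation genes moved with Nr4a1, and their part in the early response values was not tested.

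**Figure D4:**
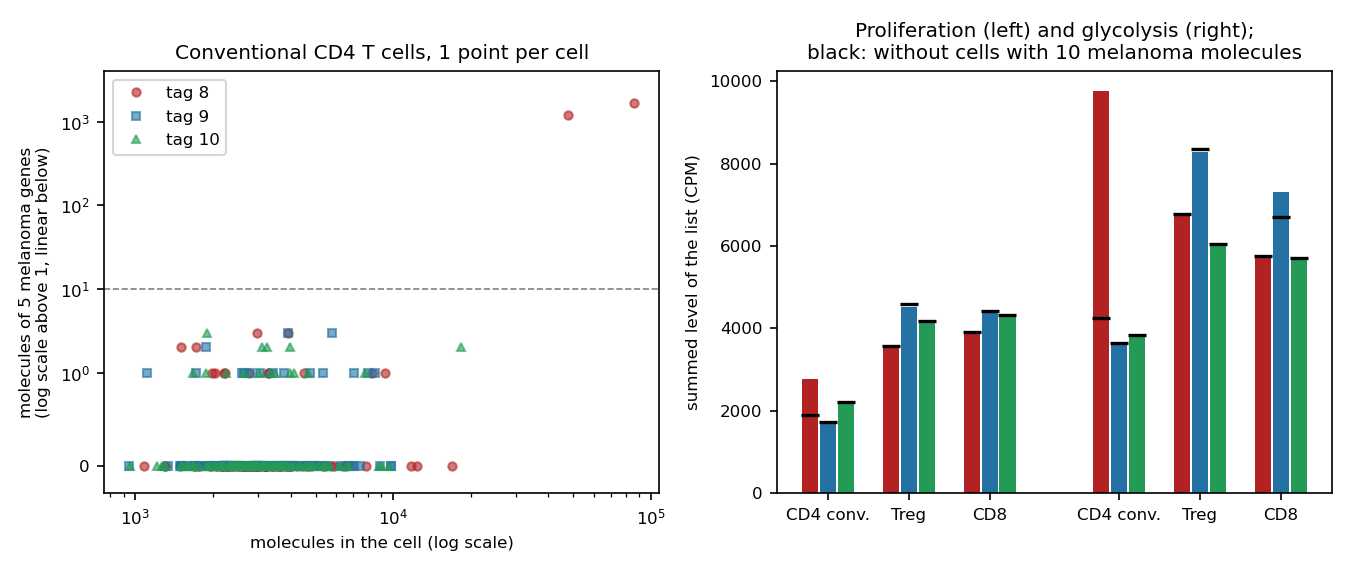
Left: molecules per conventional CD4 T cell against molecules of 5 melanoma genes, 1 point per cell; 2 cells of tag 8 lie far above the line at 10. Right: summed CPM of the proliferation and glycolysis lists by class, with bars for tags 8, 9 and 10 in that order (red, blue and green) and black marks for the value without cells with 10 or more melanoma molecules; the mark of tag 8 drops to 1901 CPM for proliferation and 4265 CPM for glycolysis.

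Proliferation and glycolysis genes had their highest member sums in tag 8, where the 2 deep cells lie. Proliferation genes summed to 2767, 1722 and 2216 CPM in members, 3576, 4518 and 4178 CPM in regulatory T cells and 3906, 4391 and 4316 CPM in CD8 T cells. Without the melanoma-rich cells, members stood at 1901, 1722 and 2216 CPM. With all cells only Mcm5, a subunit of the replicative helicase, was lower than in both other classes. Without them 9 of 12 genes were lower than in regulatory T cells and 10 of 12 lower than in CD8 T cells, among them Mki67, Top2a and Stmn1. After thinning, 30.7%, 40.9% and 44.4% of members held 2 or more molecules of the list. The shares were 40.7%, 46.2% and 38.7% of regulatory T cells, below members in tag 10, and 47.4%, 61.1% and 54.6% of CD8 T cells. Mki67 stood at 168, 52.1 and 94.7 CPM with all members and at 85.9 CPM in tag 8 without the 2 cells, against 333, 346 and 395 CPM in regulatory T cells and 275, 251 and 272 CPM in CD8 T cells. Glycolysis genes summed to 9752, 3654 and 3843 CPM in members and to 4265, 3654 and 3843 CPM without those cells, against 6788, 8351 and 6042 CPM in regulatory T cells and 5761, 6705 and 5703 CPM in CD8 T cells, also without them. Pgk1, a glycolytic kinase, stood at 1639, 266 and 303 CPM with all members and at 412 CPM in tag 8 without them. Tpi1 became lower than in both classes once they were left out.

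The members were then split by state, on molecules after thinning to 1000 per cell. The effector side had a molecule of Icos, Pdcd1, Ctla4, Lag3, Tnfrsf4, Tnfrsf9, Cxcr6 or Bhlhe40 and none of 5 genes of resting T cells, among them Ccr7, S1pr1, Klf2 and Lef1, and the resting side had the reverse. The effector side held 40, 57 and 65 cells, and the resting side 17, 9 and 11. A further 120 members had molecules of both sides and 20 of neither. The effector share was thus 39.6%, 51.4% and 51.2% of members and the resting share 16.8%, 8.11% and 8.66%, with exact intervals that overlap between tags. The resting side is small, and in tag 8 the melanoma-rich cell of 47681 molecules supplied more than the rest together, out of 92131.

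Of 3960 genes compared, leaving out the genes of the split and of the member rule, 76 were called higher on the effector side (1.92%) and 69 lower (1.74%). The lists showed 14 higher and 4 lower of 143. Without the melanoma-rich cells, 2.25% were higher and 1.18% lower over all genes, and the lists showed 15 higher and 4 lower. With at least 1 molecule required on the higher side of every tag, 0.783% were lower (31 genes), since 38 of the 69 genes called lower had a resting side at 0 in some tag that the floor lifted above the effector side. Without tag 9 the lists showed 27 higher, without tag 10 24 and without tag 8 15. A call then needs only the remaining tags in each case, and the cause of the differing counts was not tested. Scaling by TMM moved the median log2 ratio of all genes from 0.04 to 0.28, and the lists then showed 20 higher and 4 lower.

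**Figure D5:**
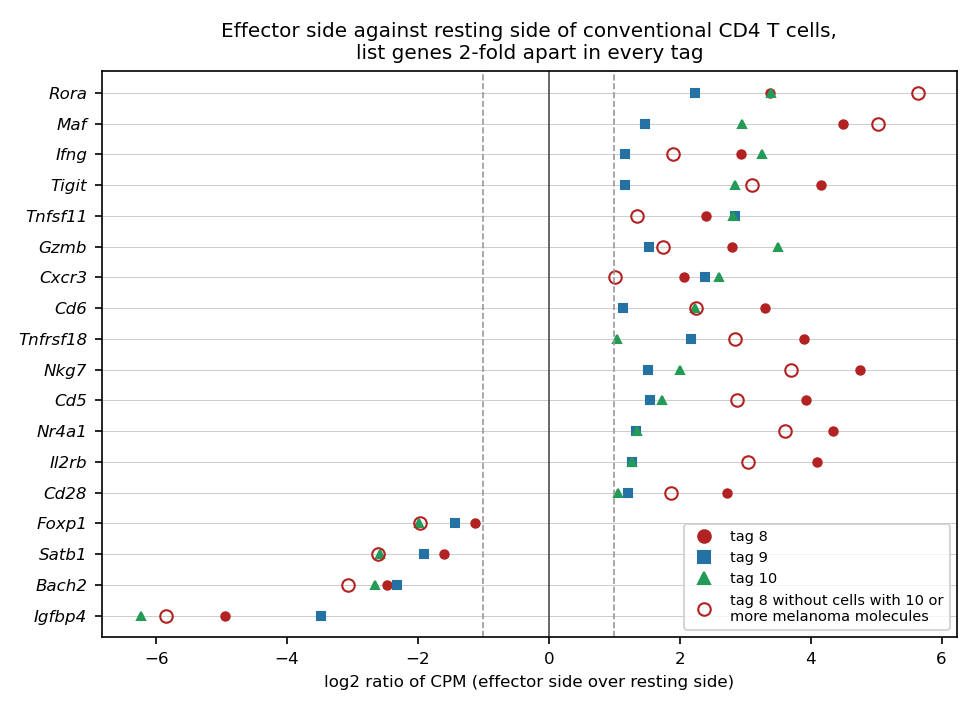
Log2 ratios of CPM, effector side over resting side of the conventional CD4 T cells, for the 18 list genes called in each tag; 1 point per tag, dashed lines at a 2-fold difference, open circles for tag 8 without the melanoma-rich cell, a tag at 0 set to the floor of 3 counts. Rora and Maf lie to the right, and Satb1, Bach2, Foxp1 and Igfbp4 to the left.

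Genes that had no part in the split differed between the sides as well. Here and below, resting-side levels of tag 8 include the melanoma-rich cell, with 47681 of the 92131 molecules, unless stated otherwise. Without that cell the 14 higher and 4 lower list genes kept their calls. Rgs1, a brake on chemokine signals known from tissue T cells, stood at 1819, 1972 and 2082 CPM on the effector side against 206, 366 and 315 CPM on the resting side. Its call was lost under no alternative. Rora stood at 1124, 1253 and 1201 against 109, 266 and 115 CPM. Il2rb, a chain of the receptors for interleukins 2 and 15, stood at 931, 1283 and 1246 against 54.3, 533 and 516 CPM, a call lost under 3 alternatives. Tnfsf11 had 24, 48 and 88 molecules on the effector side and 0, 1 and 2 on the resting side, Cxcr3 19, 35 and 38 against 0, 1 and 1, and Ifng 35, 30 and 60 against 0, 2 and 1. No ratio is given for these 3 genes, which had at most 2 molecules on the resting side of a tag. The calls of Tnfsf11, Cxcr3 and Ifng were lost under 5, 9 and 8 of the alternatives. Cd28 stood at 573, 464 and 598 against 86.8, 199.9 and 287 CPM, a call lost under 10. The other list genes called higher on the effector side were Cd5, Cd6, Gzmb, Maf, Nkg7, Nr4a1, Tigit and Tnfrsf18, of which Cd5 was lost under 2 alternatives and the rest under 5 to 8.

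Of 6 genes of the resting list that could be compared, 4 were lower on the effector side and none higher, whereas none of the 12 GIMAP and quiescence genes was called. Btg2, Klf3 and Klf6 of the last list had median log2 ratios of 0.80, 0.44 and 0.93 with all cells, with tags on both sides of 0. The median over that list was 0.19 with all cells and -0.21 without the melanoma-rich cell. Its sum on the resting side of tag 8 was 3962 CPM with that cell and 7334 CPM without it, against 6537 CPM on the effector side. In tags 9 and 10 the resting side summed to 6362 and 7081 CPM, against 5573 and 5205 CPM. Satb1 stood at 265, 409 and 310.4 CPM on the effector side against 803, 1532 and 1864 CPM on the resting side, log2 ratios of -1.60, -1.90 and -2.59, and no alternative ended the call. Foxp1, a factor that keeps naive T cells quiescent, stood at 179, 185 and 173 against 391, 499.7 and 688 CPM, a call lost under 2 alternatives. Bach2, which restrains effector differentiation, stood at 21.5, 39.9 and 59.4 against 119, 199.9 and 373 CPM, a call lost under 4 alternatives. Igfbp4 had 0, 3 and 1 molecules on the effector side against 61, 5 and 12 on the resting side, a call lost under 5. Tcf7, which set members apart from regulatory T cells, was not called here, at 501, 379 and 247 against 478, 399.7 and 602 CPM. The value of 478 CPM counts all molecules of the melanoma-rich cell in its total. Tcf7 was not called without that cell either. The whole resting list, genes of the split included, summed to 4472 CPM on the resting side of tag 8 with the cell and 8706 CPM without it. Syt4, Mlana, Tyrp1, Cops7a, Fdft1 and Met were also among the 10 most lowered genes, but each had no resting-side molecule in tags 9 and 10, so those calls came from the floor, and none could be compared once the melanoma-rich cell was left out.

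Members with Il2ra or Ikzf2, genes shared with regulatory T cells, were 79 of 339 (23.3%), or 26, 25 and 28 by tag. Their Tnfsf8 level was 151, 540.5 and 323 CPM, against 68.3, 128 and 72.3 CPM in the other members. Tnfsf11 stood at 117, 459 and 524 against 86.2, 114 and 226 CPM, Gzmb at 209.9, 495 and 1641 against 64.7, 128 and 104 CPM, and Tnfrsf9 at 225, 495 and 689 against 115, 117 and 110.0 CPM. The level of each of these 4 genes was higher in each tag among the members with Il2ra or Ikzf2. Lrrc32 stood at 19.5, 45 and 34.9 CPM in them, against 3.59, 0 and 3.14 CPM in the other members, and at 103, 81.1 and 205 CPM in regulatory T cells. Regulatory T cells held less Tnfsf8 (36.7, 1.93 and 31.3 CPM) and Tnfsf11 (7.34, 27 and 48.2 CPM) than these members. Regulatory T cells chosen by a single Foxp3 molecule, 38 of 186, had 194, 0 and 148 CPM of Tnfsf8, from 9, 0 and 13 molecules, out of 15, 1 and 13 over all regulatory T cells. Members with these genes were also deeper, with a median of 3831 molecules against 2966 for all members, and the part of depth was not tested.

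The 2 ligands overlapped in the cells that held them. Tnfsf11 was found in 26 of 53 members with Tnfsf8 (49.1%), against 48 of 286 without it (16.8%), and in 25.9% against 10.6% after thinning. Cxcr6, a receptor of tissue-homing T cells, was found in 43 of 97 members with Cxcr3 (44.3%) against 49 of 242 without it (20.2%), and in 23.8% against 11.5% after thinning. Cxcr6 was found in 28 of 154 members with S1pr1 (18.2%) against 64 of 185 without it (34.6%), and in 5% against 15.6% after thinning. Icos was found in 63.2% of members with Tcf7 and in 63.2% of those without it after thinning. These shares describe cells of 3 tags and carry no test.

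Between the tags, the widest spreads among genes with at least 100 molecules rested on few cells. With all members they were Dct, Ptgds, Tyrp1, Gpnmb and Pmel, all highest in tag 8 and carried by the 2 melanoma-rich cells. Without those cells and the haemoglobin-rich one they were Penk, Arg1, Hmox1, Igfbp4 and Ccl6. Penk, which encodes the precursor of enkephalins, had 10, 0 and 202 molecules, of which 122 lay in a single cell of tag 10. Hmox1 had 117, 14 and 15 molecules, 72 of them in 1 cell of tag 8. Ccl6 had 114, 23 and 38 molecules in 21, 12 and 27 cells, with 53 in 1 cell. Arg1 had 77, 7 and 19 molecules, 47 of them in 1 cell of tag 8. Igfbp4 had 72, 10 and 39, with 29 in 1 cell. In each of these 5 genes a single cell thus held between 40.3% and 61.5% of the molecules of the highest tag.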

How the data were processed

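Cells sorted for CD45 from B16F10 tumours were captured together on the BD Rhapsody system with a sample tag for each tumour genotype, per the labels' protocols. The values are counts of unique molecules per gene and cell, deposited by the authors. The pipeline was version 1.9.1 of BD's Rhapsody analysis software for tagged whole transcriptome libraries, run on GRCm38 with GENCODE vM19, per the file headers, while the submitters' processing notes name GRCm39. The design text speaks of a targeted library, and the headers and other labels of the whole transcriptome. Cells with a single tag, 200 genes or more and no more than 25% of molecules from mitochondrial genes entered, 3336, 3486 and 3669 in tags 8, 9 and 10, with a median of 3489 molecules. Multiplet calls (1448 cells) and undetermined calls (361) were left out.

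From these counts, molecules were summed per class and tag and given as CPM with exact Poisson 95% intervals. Regulatory T cells had at least 1 molecule of Foxp3 and none of Cd8a or Cd8b1, and CD8 T cells at least 1 of Cd8b1 and none of Cd4, Cd40lg or Foxp3, with the other parts of the member rule kept. B cells had at least 2 molecules of Cd79a and Cd79b, and macrophages at least 10 over C1qa, C1qb and C1qc, without T receptor molecules. For shares, cells were thinned to 1000 molecules, which left out 2 members, 2 CD8 T cells and 2 B cells. Genes of the rule, and of the split where it applied, were left out of all counts of calls. The genes named were those of 20 lists (212 genes), the 10 highest and 10 lowest called genes of each comparison by the value nearest 0, and the 5 genes of widest spread between tags. The members, lists and tests were chosen with earlier results of these data known. As the rule set the classes apart and tags are not replicates of a group, no p-value was computed. The first 17 alternatives covered scaling (TMM from edgeR 4.0.16, in R 4.3.3, used for factors only), thinning, filters, member rules, the split and each tag left out, and 4 more were chosen after seeing the data. A few genes of the lists and rules are not reported here by name, though they enter the counts. Calls against regulatory T cells and CD8 T cells were tried on simulated Poisson counts with known changes. The split of the members was not simulated, and neither was variation between cells of a class. Python 3.11.15, numpy 2.4.6, scipy 1.17.1 and matplotlib 3.10.9 were used.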

Additional observations from a re-analysis of the deposited data

Results flagged for a closer look

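Cells with a multiplet tag call were left out of every comparison, yet 38 of the 1271 that passed the filters met the gene rule of conventional CD4 T cells (2.99%, exact Clopper-Pearson 95% interval 2.12% to 4.08%). They had a median of 4904.5 molecules, against 2966 in members, and 11 melanoma molecules in all. Of the 175 filtered cells with an undetermined tag, 0 met the rule, which allows a share of up to 1.71%.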

How the results depend on the processing

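The classes were compared within each tag, which pairs them by tag, but the rule that chose the members also set the classes apart, so the ratios are described and no test over the 3 pairs was made. Every count here is of list genes called 2-fold apart in each tag. Against regulatory T cells, where 26 genes were higher and 18 lower in members, 5 were higher after thinning, 13 were higher without cells with other markers, and 29 were lower without members with Il2ra or Ikzf2. With 1 tag left out, 27 to 34 were higher and 21 to 30 lower. Against CD8 T cells, with 17 higher and 19 lower, thinning gave 7 higher and 10 lower. Leaving out members with Il2ra or Ikzf2 gave 26 higher. Leaving out melanoma-rich cells, with or without the haemoglobin-rich one, gave 36 higher and 29 lower. Without cells with other markers 15 were higher and 15 lower, of which 6 and 10 were among the 17 and 19. With 1 tag left out, 19 to 50 were higher and 20 to 31 lower. On the effector side, with 14 higher and 4 lower, thinning gave 2 higher and 1 lower. A T receptor sum of at least 4 gave 6 higher, and cells without other markers gave 8 higher and 2 lower. A split made before thinning gave 7 higher at 1 molecule and 7 at 2. Of the 14 genes, only 1 was among those higher after thinning. Only 3 were among those higher with the T receptor sum. The number was 3 as well without other markers and with either split made before thinning. A minimum of 10 molecules gave 11 lower and one of 100 gave 2 lower. With 1 tag left out, 15 to 27 were higher (24 without tag 10) and 3 to 5 lower. Thinning and the other markers compare fewer molecules or cells by construction (199 of 339 members held 2 or more molecules of such markers, which include Ly6c2, Ccr2, Gzma and Eomes). For the rest the cause was not tested.

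The median share of members over the tags was 3.18%, and 1.78% after thinning, 2.47% without members with Il2ra or Ikzf2, 1.20% without cells with other markers and 2.07% when those 4 genes were not counted as markers. Without cells with other markers, median levels over the tags moved to 1778 CPM for Icos, 593 CPM for Cd28, 184 CPM for Tnfsf8, 107 CPM for Ifng, 604 CPM for Tcf7 and 238 CPM for Pgk1, and with the 4 genes not counted to 623 CPM for Cd28, 239.6 CPM for Tnfsf8, 189 CPM for Ifng and 504 CPM for Tcf7. The mean over cells gave 548 CPM for Cd28 and 448 CPM for Tcf7, thinning 197 CPM for Ifng and 288 CPM for Tcf7, and leaving out members with Il2ra or Ikzf2 72.3 CPM for Tnfsf8. Median log2 ratios changed sign after thinning for Lef1 against regulatory T cells (-0.012) and for Cd5 (-0.42), Ctla2a (-0.58) and Ifng (-0.70) between the sides. They did so without cells with other markers for Rsad2 (-0.056) and Themis (-0.30) against regulatory T cells. With the split made before thinning they did so for Cxcr3 (-0.45) and Lax1 (-0.65), and for Lax1 at 2 molecules (-0.62).

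Of named calls, 9 of 55 against regulatory T cells, 11 of 52 against CD8 T cells and 2 of 33 between the sides were kept in every alternative. Higher calls over all genes were 47.0% of calls against CD8 T cells, and 35.7% under TMM. They were 59.3% against regulatory T cells, and 35.9% with a mean over cells. Between the sides they were 52.4%, and 80.3% under TMM, 11.0% at a minimum of 10 molecules, 42.4% with totals without mitochondrial, ribosomal protein and immunoglobulin genes and 71.0% with a molecule required on the higher side. Members with about 2966 molecules leave genes of few molecules poorly measured.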
